A study of Homo sapiens with 17 samples.

Results

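The nuclear genes of oxidative phosphorylation were taken as the GENCODE release 29 protein-coding genes of chromosomes 1 to 22 whose names begin with NDUFA, NDUFB, NDUFC, NDUFS or NDUFV, with UQCR, with COX4 to COX8 or with ATP5, together with SDHA to SDHD. This rule found 96 of 19019 protein-coding genes, and it used no measured value. It takes in most structural subunits of complexes I to V, 8 NDUFAF assembly factors of complex I and the complex V inhibitor ATP5IF1. A further 7 genes are grouped here as tissue-restricted subunit isoforms. Also included are the supercomplex factor COX7A2L, ATP5S, and the readthrough genes ATP5MF-PTCD1 and NDUFC2-KCTD14. Subunits that it leaves out include CYC1 of complex III and NDUFA1, NDUFB11 and COX7B on chromosome X. The polymerase pausing sites of these genes were measured in HEK293 cells, a line of human embryonic kidney origin, by a run-on assay in which polymerases of permeabilised cells extend their RNA for a chosen time. Run-on lasted 0.5, 2, 8 or 32 min in a buffer with or without the detergent sarkosyl, each in 2 replicates, which gives 16 libraries. No other treatment is labelled for these libraries, and 1 further sample labelled as a Trp treatment was not analysed here. The values come as 4 tables, each called a series: sarkosyl replicates 1 and 2 and sarkosyl-free replicates 1 and 2. A row of a series is a position with a pausing time, which was the reciprocal of a fitted rate and whose unit is not stated.

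Oxidative phosphorylation is the process by which the inner mitochondrial membrane turns the electrons of NADH and succinate into ATP. Complexes I and II pass the electrons to complex III, complex IV hands them to oxygen, complexes I, III and IV pump protons, and complex V, the ATP synthase, is driven by their return. Most subunits are encoded in the nucleus by short, broadly transcribed genes, and RNA polymerase II commonly pauses shortly after the start of such genes.

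The series listed 48566 and 47713 positions with sarkosyl and 66089 and 41769 without it, and the number of reads behind a position is unknown. Sarkosyl-free replicate 2 stood apart in its level: its median pausing time was 8.00, against 1.49, 1.34 and 2.23 in the other series. For this reason levels are given below as percentiles within a series, where 50 is the median of all its positions. Among genes fixed as markers of the HEK293 type, NEFL had sites in all 4 series, and PAX2, LHX1 and NEFM had 0. Of 6 blood markers, PTPRC had 1 site in 1 series, GATA2 had 3 in the sarkosyl series and the other 4 had 0, and the 3 liver markers had 0. The p-values below measure only the spread between the 2 series of a buffer, which the series' text calls biological duplicates.

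The positions that could be followed through every series come first, because they show where polymerase was found whichever buffer was used. Of 684 member positions, 533 were listed in 1 series, 118 in 2, 25 in 3 and 8 in all 4. The 8 lie in 7 genes, and each is 14 to 252 bp after an annotated start of its gene. For 6 of them the surrounding transcript sequence was at hand, and it is shown here in RNA sense from the GENCODE release 29 transcripts (GRCh38), 10 bases on each side, with the listed position as the capital letter.

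ATP5IF1, chr1:28236188-28236208, plus strand: cagtgacggcGttggcggcgc
ATP5PO, chr21:33915700-33915720, minus strand: aaaggtggtcCtgagagccag
NDUFA11, chr19:5903693-5903713, minus strand: gggctatggcGccgaaggttt
NDUFAF1, chr15:41402416-41402436, minus strand: gcaggccggcGgttggtgtgt
NDUFB7, chr19:14571968-14571988, minus strand: ctggtccggcGctacctgggc
NDUFS7, chr19:1383639-1383659, plus strand: tggtgactttTgccctcctgg

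The capital is G in ATP5IF1, NDUFA11, NDUFAF1 and NDUFB7, C in ATP5PO and T in NDUFS7. The remaining 2 positions, 56643683 and 56645027 of chromosome 12, lie in introns of ATP5F1B on the minus strand, and the second also lies in the small nucleolar RNA gene SNORD59A.

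ATP5PO encodes the oligomycin sensitivity conferral protein of the ATP synthase stalk, and its position 14 bp after a start had the widest separation of the 8. With sarkosyl the pausing time there was 0.631 and 1.03, as opposed to 12.05 and 23.3 in its absence, so the buffers did not overlap. With every series shifted to a common median of the shared positions, the log2 difference was -4.24 (sarkosyl minus sarkosyl-free, 95% confidence interval -6.14 to -2.34, SE 0.77), with an unadjusted p = 0.0017 and a Benjamini-Hochberg adjusted p = 0.155 in limma. The exon belongs to a non-coding transcript, and the position also lies in the protein-coding gene AP000311.1 of the same strand, so the site cannot be given to ATP5PO alone.

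NDUFA11, an accessory subunit in the membrane arm of complex I, showed the same order at a coding position 51 bp after a start. The sarkosyl series gave 0.979 and 0.784 and the sarkosyl-free series 3.05 and 4.88, again with no overlap. The log2 difference was -2.00 (SE 0.73), with limma's unadjusted p = 0.0355 and adjusted p = 0.192. This position also lies in AC024592.3, a protein-coding gene that spans NDUFA11. ATP5IF1, which encodes the inhibitor of ATP hydrolysis by complex V, was shorter with sarkosyl at 44 bp in both series, with 1.38 and 1.61 against 3.06 and 10.1. Its log2 difference of -1.77 had an interval of -3.86 to 0.33 and an adjusted p = 0.272 in limma.

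The other 5 shared positions ran the opposite way in the fit or did not separate. NDUFAF1, an early assembly factor of complex I, had 0.556 and 1.03 with sarkosyl and 0.529 and 0.164 without it at 16 bp, a log2 difference of 1.496 whose interval ran from -0.76 to 3.76. NDUFB7, an accessory subunit, had 1.02 and 3.11 against 4.57 and 0.476 at 84 bp, and NDUFS7, an iron-sulfur core subunit, had 1.42 and 1.32 against 0.369 and 3.46 at 18 bp. In both of these the sarkosyl-free replicates lay on either side of the sarkosyl ones. ATP5F1B, the catalytic beta subunit, had 1.97 and 2.14 against 0.811 and 1.82 at the first intronic position and 2.11 and 1.81 against 0.698 and 1.63 at the second.

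Of 2967 positions listed in all 4 series anywhere in the genome, 0 passed an adjusted p of 0.05 in limma, a background of 0%, and so did 0 of the 8 member positions. At an unadjusted p under 0.05 the background was 23.2%, or 689 positions, and 2 of the 8 member positions, ATP5PO and NDUFA11, were among them, which is 25%. The member share is near the background. The count of adjusted calls depends on the scaling and the replicate block: limma called 161 positions with the replicate number as a block and 158 after quantile normalization. Of the 8 member positions, 1 and 1 were among them, and with the block the smallest adjusted p of a member position was 0.0126. Omitting a series leaves 1 series in its buffer. Such a fit holds no spread for that buffer, so its calls are not given.

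**Figure D1:**
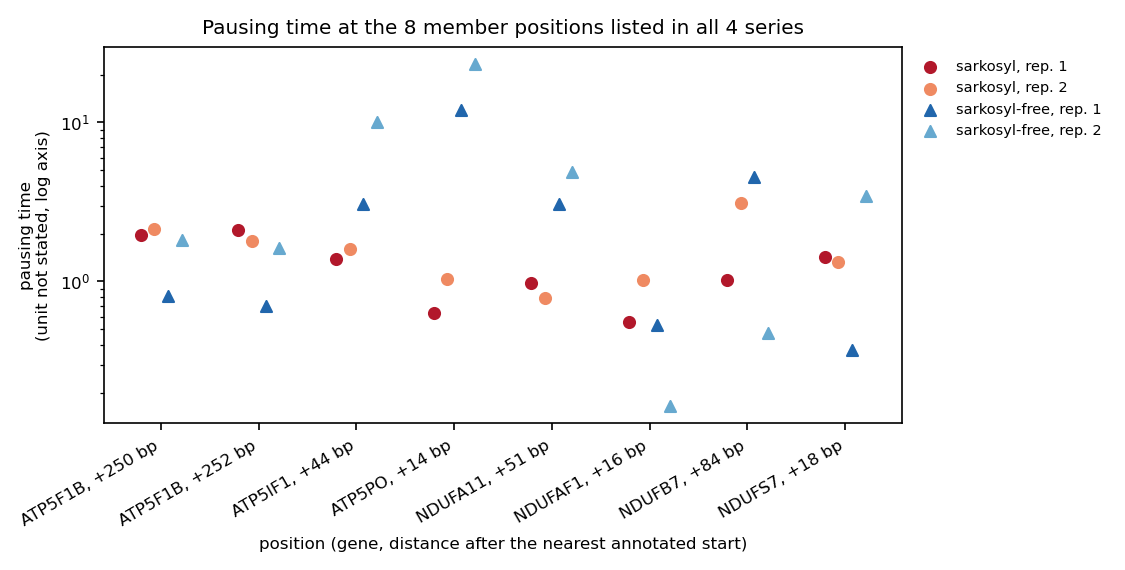
Pausing time (log axis, unit not stated) at the 8 member positions listed in all 4 series, with circles for the sarkosyl series and triangles for the sarkosyl-free series, each point being 1 series. At ATP5PO the sarkosyl series lie at 0.631 and 1.03 and the sarkosyl-free series at 12.05 and 23.3, whereas at NDUFB7 and NDUFS7 the sarkosyl-free points lie on either side.

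The members were covered more often than coding genes in general. At least 1 position was listed in any series for 85 of 96 members (88.5%), against 57.7% of the 19019 coding genes, and in each of the 4 series for 50 members (52.1%), against 25.8%. Genes of the mitochondrial ribosome, another nuclear-encoded mitochondrial set, were listed in 74 of 78 cases (94.9%) in any series and in 32 (41.0%) in all 4. The proteasome subunit genes reached 31 of 39 (79.5%) and 19 (48.7%). A listed position needs reads, so transcription level and sequencing depth enter this coverage, and their part was not tested. Each series listed 60 to 77 of the members with 168 to 297 positions, 0.402% to 0.449% of its total.

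By complex, all 4 complex II genes were listed in each series, as were 4 of 5 complex V F1 genes, 6 of 10 complex IV genes, 4 of 7 complex I core genes, 5 of 8 complex I assembly factor genes, 7 of 13 stalk and membrane genes of complex V, 13 of 28 complex I accessory genes and 4 of 9 complex III genes. The 11 members with 0 sites were ATP5MGL, ATP5PD, COX4I2, COX6A2, COX6B2, COX7A1, COX7B2, COX8C, NDUFA6, UQCR10 and UQCRHL. Among them are the subunit isoforms known from lung, heart, skeletal muscle or testis. Of the 7 genes grouped here as tissue-restricted isoforms, NDUFA4L2 alone had a site, a single position with a time of 23.3 in sarkosyl replicate 1. By contrast the counterparts COX4I1, COX6A1, COX6B1, COX7A2 and COX8A were all listed, with 4 to 19 site values over the 4 series. NDUFA6, UQCR10 and ATP5PD are ordinary subunits of complexes I, III and V, and a count of 0 in these tables does not show that they are not transcribed. Of 162 pseudogenes named after a member, 4 had a site, with 2 to 13 positions a series in all.

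**Figure D2:**
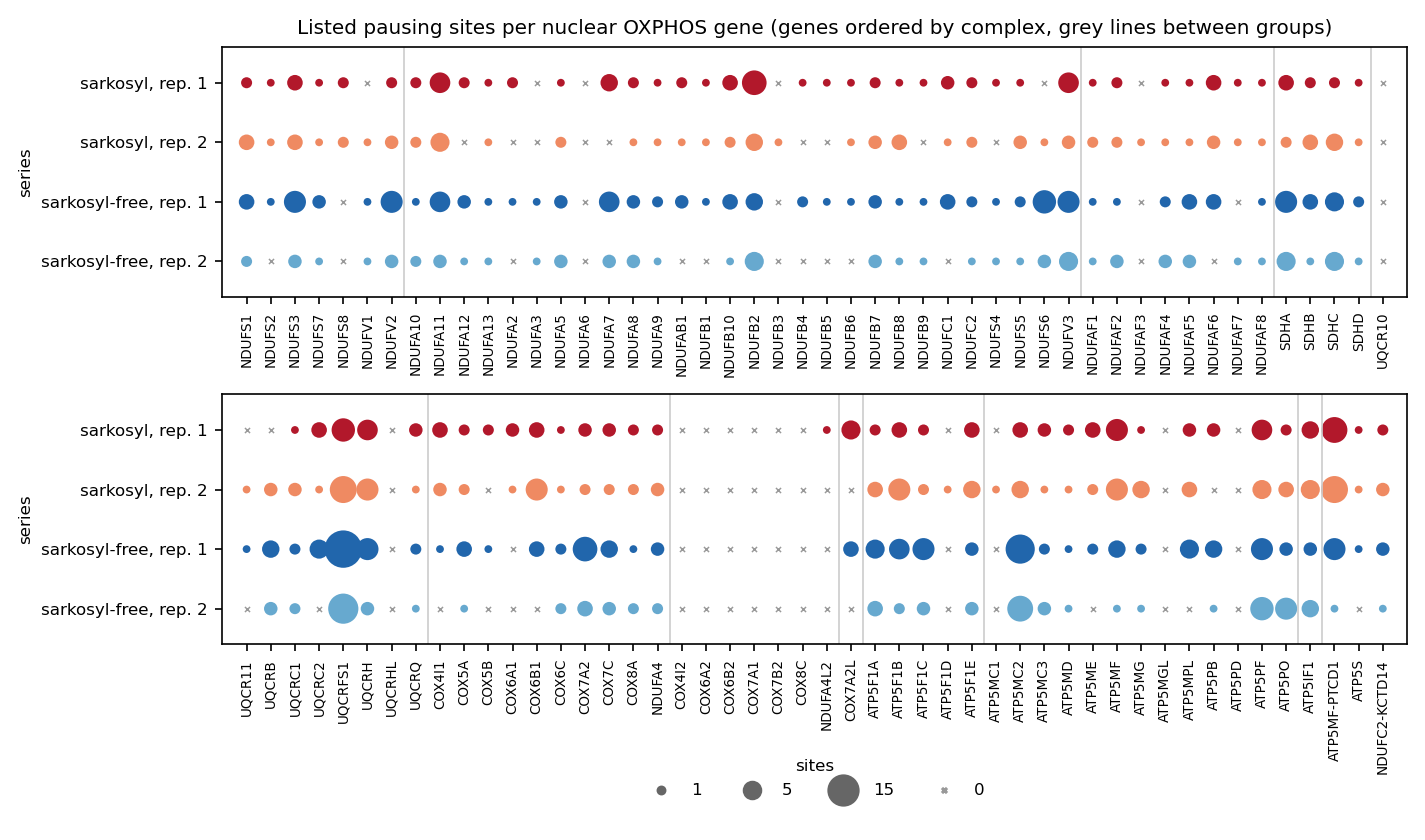
Number of listed positions (area of the circle, cross for 0) of each of the 96 members, with 1 row of circles for each of the 4 series and genes ordered by complex. UQCRFS1 has the largest circles of the sarkosyl-free series, with 23 and 15 positions. The isoform genes between the complex IV and complex V groups carry crosses, except NDUFA4L2 with 1 position in sarkosyl replicate 1.

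Sites were unevenly shared out. The 10 members with the most site values held 297 of 905, or 32.8%. UQCRFS1, the Rieske iron-sulfur protein of complex III, led with 59 site values at 44 positions. Of these, 32 lay in the 3′ UTR of its last exon and 12 in its intron, and the one nearest to an annotated start was 812 bp away. The site values of UQCRFS1 were long with sarkosyl, with medians of 4.39 and 2.11 against series medians of 1.49 and 1.34, and were 4.29 and 9.80 without it. All 4 of its medians lay above the median of their series. Position 29206258 of chromosome 19 had 11.8 and 5.29 with sarkosyl, in the 93.2nd and 94.0th percentile, and was not listed without it. Position 29205785 had 9.35 in sarkosyl replicate 1 and 4.69 and 9.80 without sarkosyl, and position 29205939 had 22.2, 2.87 and 0.318 in sarkosyl replicates 1 and 2 and sarkosyl-free replicate 1. Their surroundings are shown because these are the UQCRFS1 positions listed in 3 series, with the position in capitals as above.

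UQCRFS1, chr19:29205775-29205795, minus strand: gacaggacaaGtcaagtcact
UQCRFS1, chr19:29205929-29205949, minus strand: aggaagtttgCaggtctctag

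The other members of this group differed in where their sites lay. ATP5MC2, one of 3 genes for the c subunit of the rotor ring, had 34 site values at 25 positions, of which 23 were intronic. ATP5PF, coupling factor 6 of the stalk, had 30 with 20 of 25 positions in introns, and UQCRH, the hinge protein of complex III, had 26 with 18 of 20 in introns. NDUFB2, a complex I accessory subunit, had 26 site values with 9 of 21 positions within 300 bp of a start, and ATP5F1B had 21 with 8 of 12. NDUFV3 had 24, with 6 of 18 positions in exons of non-coding transcripts, and NDUFA11 had 23, with 9 of 14 positions in the 3′ UTR. ATP5MF-PTCD1 and ATP5MF had 32 and 22 and are not independent, since the readthrough gene contains all 19 positions of ATP5MF.

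Within a buffer a minority of the listed positions came back in the other replicate. The sarkosyl replicates shared 67 member positions, 32.2% of replicate 1 and 33.0% of replicate 2, and the sarkosyl-free replicates shared 61, 20.5% of replicate 1 and 36.3% of replicate 2. Across buffers the 4 pairs of series shared 15 to 44. Spearman's rho of the pausing times was 0.595 over the 67 positions and 0.288 over the 61, beside 0.691 and 0.475 over all positions shared in the same pairs. Across buffers rho ran from -0.203 to 0.0421 over the members and from 0.0359 to 0.0841 over all shared positions. These values describe positions, which share libraries and often a gene.

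With sarkosyl, the 3 shortest of the 67 replicated positions were all near a start. NDUFS1, the largest core subunit of complex I, had 0.508 and 0.680 at 64 bp in its 5′ UTR. NDUFB8 had 0.543 and 0.743 at 44 bp, a position that also lies in the protein-coding gene AL133352.1. COX7C, a small complex IV subunit, had 0.591 and 0.795 at 15 bp. The 3 longest lay deep in genes: both UQCRFS1 positions 29206258 and 29205939, and position 56641931 in an intron of ATP5F1B with 10 and 3.597. Without sarkosyl, the 3 longest of the 61 replicated positions were in the 3′ UTR of COX7C (position 86620767 of chromosome 5, 20 and 76.9), in an intron of NDUFB2 (8.62 and 43.5) and in an intron of NDUFS6 (9.62 and 34.5). The 3 shortest were in the 3′ UTR of ATP5F1A (0.328 and 0.518), in the coding sequence of SDHB (0.287 and 0.752) and at the NDUFAF1 position above. These picked 5′ and 3′ UTR positions of COX7C thus appear at opposite extremes, in different buffers, which does not describe its UTRs as a whole. A further 3′ UTR position, 86620566, was at percentile 78.1 in sarkosyl replicate 1 and at 7.92 and 28.2 in the sarkosyl-free replicates. The 5′ UTR position 86618000 was at 59.9 and 52.8 in the sarkosyl-free replicates.

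The level of the members as a set was close to the middle of every series. The median percentile of their sites in the sarkosyl series was 51.0 and 49.5, with a mean of 50.3 ± 1.03 (SD, n = 2). In the sarkosyl-free series it was 54.7 and 50.7, with a mean of 52.7 ± 2.87 (SD, n = 2). Over the more certain sites, those with a narrower relative interquartile range, the member mean was 26.2 with sarkosyl and 77.5 in its absence. The range and the time come from the same fitted rate, so this choice is not independent of the time. No coding-gene value was taken under it, so the gap cannot be called particular to the members. All coding-gene sites had 51.0 and 52.3 with sarkosyl and 51.0 and 53.6 without it. Sites of complex III were at 60.3, 64.9, 59.7 and 53.3 in sarkosyl replicates 1 and 2 and sarkosyl-free replicates 1 and 2, above the median in each. Sites of complex IV were at 41.97, 38.0, 43.3 and 55.1, and those of the complex I assembly factors at 30.0, 32.2, 33.8 and 62.9. In both of these sets sarkosyl-free replicate 2 was the one series above its median. Complex I core sites were at 47.4, 52.9, 58.6 and 54.4 and complex II sites at 35.7, 53.0, 61.2 and 52.4. Complex I accessory sites were at 51.6, 43.4, 54.9 and 42.4. Complex V F1 sites were at 66.7, 53.3, 57.1 and 33.3, and stalk and membrane sites of complex V at 52.5, 37.5, 48.9 and 41.3. These medians rest on 9 to 77 sites a series. UQCRFS1 supplied 9 of 24, 12 of 29, 23 of 47 and 15 of 24 of the complex III sites.

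Pausing near the start is the best known pause of RNA polymerase II, so sites were divided by their distance from it. Sites within 300 bp of a start made up 55.8% and 36.5% of member sites with sarkosyl and 32.7% and 30.4% without it, beside 45.7%, 36.0%, 24.4% and 24.4% over all coding genes. With sarkosyl, member sites in this window had medians of 1.31 and 1.15, against 1.76 and 1.43 for the other member sites, log2 differences of -0.43 and -0.32 (mean -0.37 ± 0.08, SD, n = 2). Over the more certain sites, a choice not independent of the time, the mean was -0.039. Coding genes gave -0.44 and -0.31 over all their sites. Without sarkosyl the member differences were 0.14 and -0.14, so the replicates took opposite signs (mean 0.00107 ± 0.193, SD, n = 2), whereas coding genes gave -0.48 and -0.51.

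The first 60 bp were also taken alone. Member sites there had median percentiles of 35.6 and 27.4 in the sarkosyl series and of 56.3 and 54.6 in the sarkosyl-free series, over 65, 40, 63 and 33 sites. All coding genes had 34.1 and 33.0 in the former and 44.2 in both of the latter. From 101 to 300 bp the member percentiles were 79.8 and 66.8 for the sarkosyl series and 56.1 and 26.9 for the sarkosyl-free series, over 20, 13, 13 and 8 sites. Coding genes had 65.4, 58.3, 48.5 and 49.6 there, so members were higher in 3 series and lower in sarkosyl-free replicate 2. In the first 60 bp members were above coding genes in both sarkosyl-free series. None of these differences was tested.

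Positions listed in at least 1 series of both buffers were compared at matched bases. Within 60 bp of a start there were 24 such member positions, and at 13 of them (54.2%) the percentile was lower in every listed sarkosyl series than in every listed sarkosyl-free series, against a background of 44.1% over coding genes. At 7 (29.2%, background 37.6%) it was higher, and at the other 4 the buffers overlapped. From 61 to 300 bp, 7 of 16 were lower (43.8%, background 31.2%) and 5 were higher (background 54.3%). Beyond 300 bp 4 of 24 were lower (16.7%, background 28.3%) and the other 20 were higher (83.3%, background 56.8%). The difference of these shares from the background was not tested. A position listed in only 1 series of each buffer cannot overlap, so the shares depend on how many series list a position. Beyond 300 bp the buffers overlapped at 0 of 24 member positions and at 512 of 3432 coding-gene positions. SDHA, the flavoprotein subunit of complex II, had 0.690 in sarkosyl replicate 1 and 3.89 and 50 without sarkosyl at 43 bp. NDUFA8 had 2 positions 9 bases apart, with 0.506 in sarkosyl replicate 1 and 0.403 and 18.9 without sarkosyl at 92 bp, and with 0.481, 1.88 and 13.3 at 101 bp. These 3 positions were chosen after their values were seen.

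**Figure D3:**
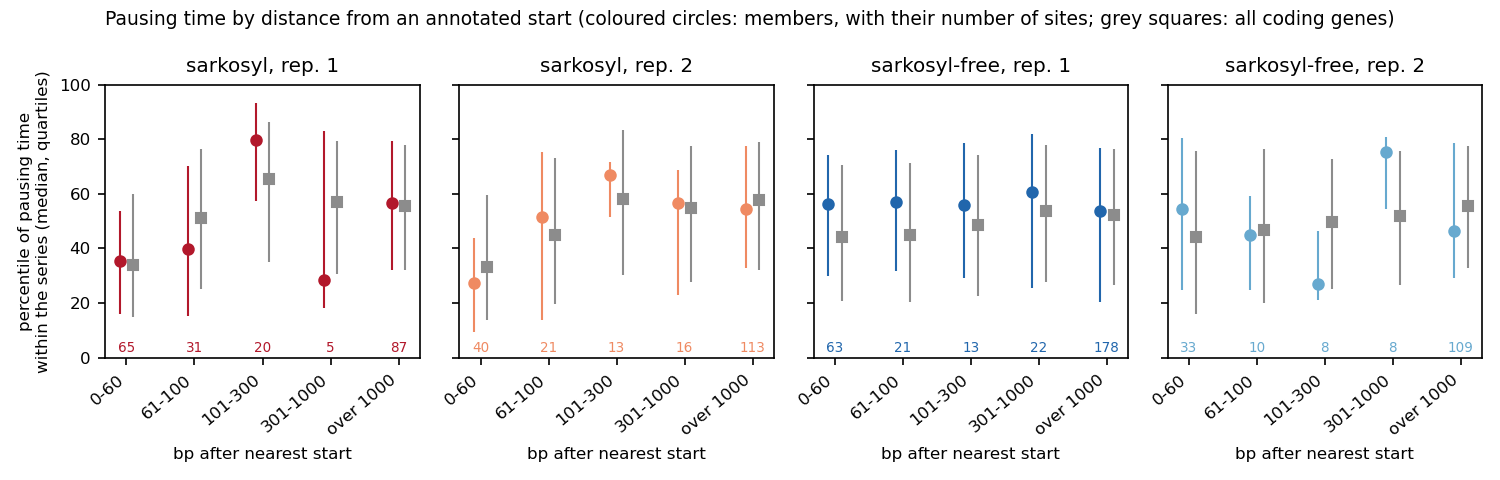
Percentile of pausing time within a series (vertical axis, median as symbol and quartiles as bar) by distance after the nearest annotated start of the gene (horizontal axis), with 1 panel for each series, coloured circles for members and grey squares for all coding genes, and the number of member sites at the foot. In the first 60 bp the member median is 35.6 and 27.4 in the sarkosyl panels, under the 56.3 and 54.6 of the sarkosyl-free panels.

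The base at the listed position differed between the buffers too. Of exonic member sites, 73.5% and 72.6% were C with sarkosyl, against 49.6% and 23.3% without it, and G made up 23.1%, 23.2%, 48.2% and 74.4% in the same order. All coding genes had C at 73.7%, 72.0%, 50.9% and 21.7%, close to the member shares in each series. A and T together made up 9 of 318 exonic member positions. G lay 3 bases before the listed base at 156 of the 318 (49.1%), beside 46.6% of 39377 exonic coding-gene positions. Among exonic positions listed in 3 or 4 series it did so at 17 of 24 in members (70.8%), beside 63.3% of 2674 in coding genes, as in ATP5IF1, ATP5PO, NDUFA11, NDUFAF1 and NDUFB7 above.

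Pausing times went with the base. C sites of members had medians of 1.35 and 1.12, then 1.74 and 2.56, in the sarkosyl and sarkosyl-free series, and G sites had 1.46, 1.505, 3.05 and 9.62. The log2 difference of C minus G, in the same order, was -0.12, -0.42, -0.81 and -1.92, negative in each series, and -0.12, -0.07, -0.71 and -1.39 over coding genes. The level and start values above were therefore also taken within each base. Over C sites alone the log2 difference of the first 300 bp from the rest was -0.498 and -0.35 for sarkosyl. Without sarkosyl it was 0.48 over 38 and 30 sites and -1.24 over 11 and 10 sites, so those replicates took opposite signs and their mean of -0.38 describes neither. Over G sites alone the mean was -0.68 with sarkosyl, where 4 and 5 sites lay beyond 300 bp, and 0.24 without it. What makes the base differ between the series was not tested.

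**Figure D4:**
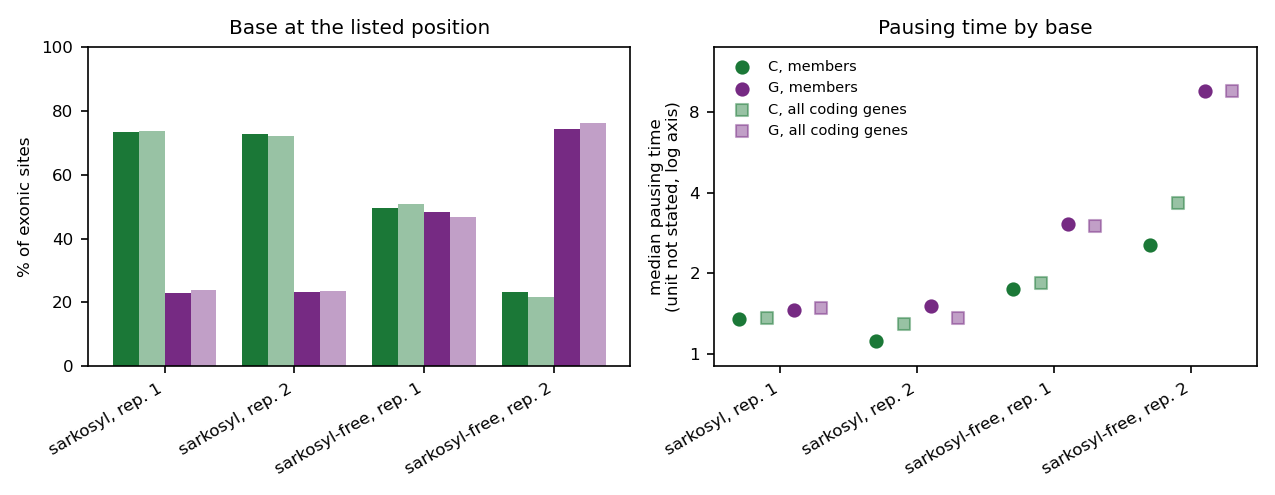
Left, percentage of exonic sites with C (green) or G (purple) at the listed position in each series, members in full colour and all coding genes in pale colour. Right, median pausing time of C and G sites on a log axis (unit not stated), circles for members and squares for all coding genes, where G lies above C in each series.

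The buffers were then compared gene by gene, on the median log2 pausing time of a gene's sites each series being shifted first to a median of 0 across the tested genes. Of 4902 genes with a site in every series, limma with Benjamini-Hochberg adjustment found 0 past 0.05, a background of 0%, and 0 of the 50 members, with a smallest adjusted p of 0.517. At an unadjusted p under 0.05, 4 members were longer with sarkosyl (8%, background 6.94%) and 1 was shorter (2%, background 2.1%). The member shares are near the background. Both sarkosyl values lay below both sarkosyl-free values in 7 members (14%, background 16.7%) and above them in 10 (20%, background 23.9%).

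NDUFAF8, a complex I assembly factor, had the smallest p. Its medians were 0.532 and 0.760 in the sarkosyl series, far under 6.06 and 76.9 in the others, with no overlap. The log2 difference was -3.55 (SE 0.88), with limma's unadjusted p = 0.00716 and adjusted p = 0.517. It rests on 1 site a series, and its 4 positions are all different, so no position was compared with itself. The sarkosyl sites lay 80 and 81 bp after a start, while neither sarkosyl-free site lay within 300 bp of a start. Distance from the start thus differed along with the buffer.

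ATP5MD, a small membrane subunit of the ATP synthase, had the largest value in the other direction, on 2, 1, 1 and 1 sites. Its sarkosyl medians were 1.51 and 1.07, above 0.382 and 0.301 in the others, again apart. The log2 difference was 3.42 (SE 0.98), with limma's unadjusted p = 0.0134 and adjusted p = 0.517. The value of sarkosyl-free replicate 2 comes from position 103394300 of chromosome 10, which also lies in the microRNA gene MIR1307. SDHD, a membrane anchor of complex II, had 5.38 and 2.63 with sarkosyl and 4.96 and 3.91 without it, so its deposited times overlapped and only the centred values were apart, with a log2 difference of 2.21 and an adjusted p = 0.517 in limma. SDHD rests on 5 positions, none listed in more than 1 series, and all 5 also lie in the protein-coding gene AP002884.3.

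SDHB, the iron-sulfur subunit of complex II, had 0.740 and 1.40 against 0.476 and 0.752, with a centred log2 difference of 2.34 (SE 0.84). ATP5F1C, the rotating gamma subunit, had 11.6 and 3.09 against 1.91 and 5.10, with a difference of 2.39 (SE 0.93) over 15 positions, none of them listed in more than 1 series. Limma's adjusted p was 0.522 and 0.545 for these genes, and the deposited times of both overlapped between the buffers. NDUFAF1 had a difference of 2.95 whose interval, -0.29 to 6.19, included 0. On the other side NDUFA4, now counted as a complex IV subunit, had 0.839 and 1.12 against 2.86 and 20.4, a difference of -1.43 (SE 0.76), and NDUFA8 had 0.493 and 1.36 against 1.88 and 16.4, a difference of -1.23 (SE 0.90).

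Of the 50 members, 30 were longer with sarkosyl after centring, and their median log2 difference was 0.35, beside 0.24 over all 4902 genes. The direction depends on the scaling. After quantile normalization 24 of 50 were longer and the median was -0.05, without centring 7 of 50 were longer and the median was -1.18, and without sarkosyl replicate 1 the median was -0.04. Over all tested genes 57.8% were longer after centring, 49.8% after quantile normalization and 17.8% without centring. By group, the median was 1.42 over the 4 complex II genes and 1.06 over 4 complex V F1 genes. It was 0.52 over 7 stalk and membrane genes of complex V and 0.44 over 6 complex IV genes. The complex I assembly factors had 0.33 over 5 genes, the complex I core 0.28 over 4 and complex III 0.15 over 4. The 13 complex I accessory genes had -0.47. Replicates of gene values were loosely tied: Spearman's rho between the sarkosyl series was 0.325 over the 50 members and 0.280 over all genes, and between the sarkosyl-free series 0.0933 and 0.129.

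**Figure D5:**
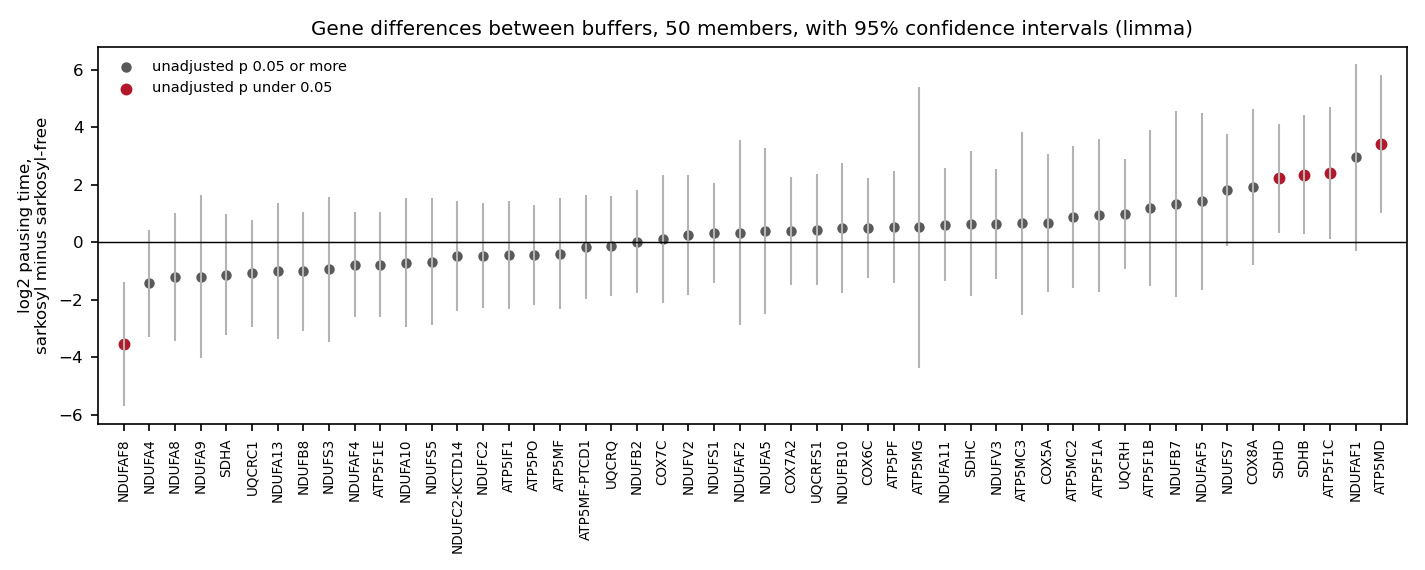
Log2 difference of gene median pausing time, sarkosyl minus sarkosyl-free, after centring, for the 50 members with a site in every series, with 95% confidence intervals from limma and red points for an unadjusted p under 0.05. The points run from -3.55 in NDUFAF8 to 3.42 in ATP5MD, and 30 lie above 0.

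Other genes of the pathway, from lists of electron carriers, assembly factors and regulators outside the rule, gave as little. Of 7 carriers and further subunits tested, 0 passed the adjusted threshold in limma and COQ3 was shorter at an unadjusted p under 0.05. Of 19 assembly factors for the complexes, 0 passed, and COX16 and ECSIT were longer at an unadjusted p under 0.05. Of 8 regulators and factors of mitochondrial transcription, 0 passed and 0 had an unadjusted p under 0.05. Over all 4902 genes, limma's unadjusted p was under 0.05 for 340 longer genes (6.94%) and 103 shorter genes (2.1%). The counts in these short lists were not tested against those shares.

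The promoters of the members were searched for 3 short motifs known from nuclear genes of mitochondria, since many sites lie just after the start. RefSeq promoters of GRCh38.p14, from 250 bases before to 50 after the gene start, were at hand for 75 of the 96 members. On either strand, GCGCATGCG, a core of the nuclear respiratory factor NRF1, was present in 11 of the 75 (14.7%) and in 2.77% of 14597 coding promoters. CCGGAAG, an ETS factor core, was present in 20 (26.7%) and in 14.5%, and AAGATGGCG, a YY1 core, in 8 (10.7%) and in 2.86%. A match is a run of letters and not a shown binding site, and no factor was measured here. The 100 bases before the RefSeq start are shown for 4 members described above, with matches in capitals; NDUFS7 and ATP5F1C carry the NRF1 core, NDUFB7 and SDHD the ETS core.

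NDUFS7, chr19:1383807-1383906, plus strand: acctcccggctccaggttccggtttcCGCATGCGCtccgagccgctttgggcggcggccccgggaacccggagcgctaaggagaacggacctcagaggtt
ATP5F1C, chr10:7788077-7788176, plus strand: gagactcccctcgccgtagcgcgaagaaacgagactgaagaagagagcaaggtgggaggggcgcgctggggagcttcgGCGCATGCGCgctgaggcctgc
NDUFB7, chr19:14572067-14572166, minus strand: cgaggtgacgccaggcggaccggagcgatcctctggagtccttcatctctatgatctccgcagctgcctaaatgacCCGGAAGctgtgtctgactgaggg
SDHD, chr11:112086773-112086872, plus strand: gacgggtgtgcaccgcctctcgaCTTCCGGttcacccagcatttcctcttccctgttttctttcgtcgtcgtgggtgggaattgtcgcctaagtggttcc

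In ATP5F1C the core read on both strands overlaps in 1 run of capitals. The NDUFS7 position listed in all 4 series lies before the RefSeq start used here, after a start that GENCODE annotates. In NDUFS7, ATP5F1C and SDHD the matches lie inside the GENCODE span of the gene. They are thus upstream of the RefSeq start but not of the first GENCODE start.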

How the data were processed

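Per the submitters' processing notes, cutadapt 1.14, HISAT2 2.1.0, SAMtools, bedtools and build hg38 were used. The rule that lists a position, the model, its prior and the unit of time are not given in the sources used here. The authors' deposited tables give, per the file headers, a rate summary and a pausing time per position and strand. The rate has 3 decimals, so long times take few values. The number of value columns not mapped to a group was 0.

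Positions were given to GENCODE release 29 genes containing them on the same strand. They count from 1, since the base at the listed position was C or G on both strands alike only under that reading. Times were analysed as log2. Gene medians and shared positions were fitted with limma 3.58.1 (R 4.3.3), buffer as the one term, two-sided, Benjamini-Hochberg adjusted over all features tested, threshold 0.05. The step was tested on simulated data with known changes. How many of them it recovered is not given here, so 0 calls do not show that the buffers had no effect. The rest was computed with Python 3.11.15, pandas 2.3.3, scipy 1.17.1 and matplotlib 3.10.9. Named were the 10 members with most sites, those with a position in all 4 series, the extremes of the gene fit and of the replicated positions, and members with 0 sites. The members and lists were chosen with earlier results of these data known. Sequences were read for exonic positions only, and intronic ones were not used here. An item of the marker list is not reported here.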

Additional observations from a re-analysis of the deposited data

Results flagged for a closer look

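Member sites 0 to 60 bp after a start differed from the other member sites in opposite directions in the 2 buffers. The log2 difference of median pausing time was -0.75 and -0.48 in the sarkosyl replicates 1 and 2, and 0.11 and 0.44 in the replicates 1 and 2 run without sarkosyl. Both series of a buffer took the same sign, and the difference between the buffers was not tested. The sarkosyl-free values are small beside the interquartile range of member sites, which was 3.48 and 2.98 in log2 in those replicates. With the window of 300 bp the sarkosyl-free replicates took opposite signs, 0.14 and -0.14. The same log2 difference over coding genes is not given here for the first 60 bp.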

How the results depend on the processing

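Of 75 alternatives over 8 results, 41 kept the value within the replicate spread or the count within 1.5 times, 26 moved it further and 8 turned its sign. Some of these outcomes were fixed in advance. Omitting a series cannot move a level or start mean beyond its replicate SD, although it can turn its sign. A block for the replicate number and a changed limma prior cannot alter the member median gene difference, which stayed at 0.35. The gene test gave 0 calls under every alternative run, the replicate block (fit with the replicate number as a block) and each omitted series included, and gave 0 calls as reported, so there was no call to lose. At shared positions the replicate block gave 161 calls, quantile normalization 158, and omitted series 0 to 1597. The deviations of same-numbered series had a correlation of 0.0163 over 4902 gene medians, -0.198 over the 50 members and 0.0134 over 2967 shared positions, and the labels name no batch or day that a number marks. The member median gene difference was 0.54 with at least 3 sites per gene, 0.14 with gene means, 0.54 over sites beyond 1000 bp from a start, -1.18 without centring, -0.049 after quantile normalization and -0.038 to 0.43 with a series omitted. The member level with sarkosyl was 48.8 with 1 value per gene, 26.2 over the more certain sites (narrower relative interquartile range), 48.6 among coding-gene sites, 40.8 over C and 53.2 over G sites; without sarkosyl it was 49.3 with 1 value per gene, 77.5 over the more certain sites, 36.6 over C and 56.2 over G. The start difference with sarkosyl was -0.54 in a 150 bp window, -0.54 from the gene's first start, -0.039 over the more certain sites and -0.68 over G. Without sarkosyl it was 0.30 in a 1000 bp window, -0.17 from the first start, -0.064 in sites of 1 gene only, -0.052 over the more certain sites, -0.38 over C, 0.24 over G and -0.14 to 0.14 with a series omitted. Members listed in every series numbered 22 with at least 2 sites a series, 18 beyond 1000 bp, and 51 to 62 when 1 series was omitted. C and G sites alone, and omitted series for this last count, were chosen after seeing the data. The cause of these shifts was not tested, and the range that picks the more certain sites comes from the same fitted rate as the time. Read depth is unknown, so no counting error can be given.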

Other observations

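Genes next to the members in the pathway but outside the rule had sites too. CYCS, the electron carrier cytochrome c, had 5, 5, 6 and 5 sites in sarkosyl replicates 1 and 2 and sarkosyl-free replicates 1 and 2, with median times of 3.08, 1.139, 3.08 and 17.2. These lay at the 72.0, 36.6, 57.0 and 72.1 percentiles, so sarkosyl replicate 2 was the one series in which they were below the median. NDUFA1, a complex I subunit encoded on chromosome X, was listed in each series with 3, 2, 1 and 1 sites at the 73.8, 56.0, 68.4 and 71.6 percentiles. COX7B, also on chromosome X, had 1 site in sarkosyl replicate 1 and 2 in sarkosyl-free replicate 1, at the 78.3 and 79.8 percentiles. CYC1, on chromosome 8, had 1 site in sarkosyl replicate 1 and 1 in sarkosyl-free replicate 2, at the 24.2 and 52.6 percentiles. NDUFB11 lies on the minus strand of chromosome X, for which both sarkosyl series list no position at all, and it had 0 sites in all 4 series.

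The mitochondrial ribosome genes had larger shares of sites within 300 bp of a start than the oxidative phosphorylation genes in each series, with 68.4% and 50.4% with sarkosyl and 37.1% and 42.7% without it. Their median percentiles were 52.4, 49.5, 52.2 and 55.1.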
